A study of Mus musculus with 4 samples.

Results

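CTCF peaks at promoters that belong to a long noncoding RNA (lncRNA) gene and to no protein-coding gene are described here, in adult mouse cerebral cortex. A peak was taken when its summit lay within 1000 bp of a lncRNA transcription start site (TSS) and more than 1000 bp from every protein-coding TSS. Of the 44672 summits in the conservative peak list, 736 met that rule, which is 1.65% of the list. They lay in 727 separate intervals, and their nearest lncRNA TSSs belonged to 684 genes. Counting every lncRNA gene with a TSS in reach, 704 of 10155 annotated lncRNA genes (6.93%) had such a peak, and 49 of them had 2 or more summits. Another 4729 summits lay within 1000 bp of a protein-coding TSS (coding promoters below), and 39207 lay farther than that from every TSS of both kinds (non-promoter peaks below).

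The tissue was left cerebral cortex from female B6CASTF1/J mice aged 2 months, a strain that by its name is the first-generation hybrid of C57BL/6 and CAST. Chromatin immunoprecipitation with an antibody to CTCF was followed by sequencing of 4 libraries, 2 technical replicates from pool I and 2 from pool J, and each pool combined 4 cortex biosamples. The labels name no treatment, so the study has 1 condition, and both pools serve as biological replicates. The peak lists hold no expression values, so the tissue label could not be checked against marker genes, and whether any lncRNA named here was transcribed in these samples was not measured. Cortex is a mixture of neurons, glia and vascular cells, and a peak list of whole tissue does not say in which of them a site was bound.

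CTCF is a zinc finger protein that binds a long, directional DNA motif. With the ring-shaped complex cohesin it anchors chromatin loops, mostly between sites whose motifs point toward each other. LncRNA genes give rise to long transcripts without a protein product. Some of these transcripts act on chromatin or in nuclear bodies, some are the precursors of small RNAs, and for many no function is known. Their promoters are on the whole poorer in CpG dinucleotides than those of protein-coding genes, and CTCF binds less well where CpGs in its motif are methylated.

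Sequences around single summits are given as examples from these promoters. They were picked by motif score or signal value, and they do not show which bases CTCF contacted. The motif model, a table of base preferences 20 bp long, was learned from strong peaks of all kinds on odd-numbered autosomes, and its consensus was TGGCCACCAGGGGGCGCCAG. The 5 windows with the highest motif scores are printed first, as the clearest instances of that sequence at lncRNA promoters. Each is 81 bases long, centred on the summit and written 5′ to 3′ on the strand of the motif, with the motif in capitals (mm10, GRCm38.p6 reference sequence).
Gm37584, chr3:88526371-88526451, minus strand: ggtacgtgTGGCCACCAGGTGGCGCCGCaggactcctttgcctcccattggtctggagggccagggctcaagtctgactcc
Gm36862, chr12:17554273-17554353, plus strand: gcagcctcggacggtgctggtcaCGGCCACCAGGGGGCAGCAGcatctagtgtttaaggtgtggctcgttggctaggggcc
AC151478.3, chr19:44419169-44419249, minus strand: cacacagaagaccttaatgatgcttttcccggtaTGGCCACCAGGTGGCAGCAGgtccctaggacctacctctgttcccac
Gm48284, chr9:40616530-40616610, plus strand: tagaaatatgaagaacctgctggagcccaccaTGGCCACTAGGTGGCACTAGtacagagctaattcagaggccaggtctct
Tspan32os, chr7:143008177-143008257, plus strand: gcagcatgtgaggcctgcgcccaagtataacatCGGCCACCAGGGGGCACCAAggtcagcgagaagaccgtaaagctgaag

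In those 5 windows 16 or 17 of the 20 motif bases were identical to the consensus. None of the 5 was CpG-rich by the definition given further on, and their signal values ran from 505 to 631. The signal value is the authors' own number for the strength of each peak, in a unit that was not stated. Gm48284 and Tspan32os both had their summit 184 bp upstream of the lncRNA TSS, and in both the motif lay on the strand opposite to the transcript. Gm36862 lay 545 bp and Gm37584 944 bp downstream of the TSS. In both the motif lay on the gene's own strand, the annotated strand that reads like the transcript.

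A match was counted where a motif scoring above a fixed threshold was centred within 50 bp of the summit. The next 3 windows belong to the strongest peaks that had no such match, and are shown because they rank so high without one. They are written on the plus strand, and capitals mark an octamer found in 2 of them.
Gm31812, chr1:52113930-52114010, plus strand: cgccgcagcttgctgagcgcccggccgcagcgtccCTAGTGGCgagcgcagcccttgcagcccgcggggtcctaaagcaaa
AC122818.2, chr17:87571778-87571858, plus strand: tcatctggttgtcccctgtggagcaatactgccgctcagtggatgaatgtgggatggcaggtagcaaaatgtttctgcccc
Gm12925, chr4:123667699-123667779, plus strand: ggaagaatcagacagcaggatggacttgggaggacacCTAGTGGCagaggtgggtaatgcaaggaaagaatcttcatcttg

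The octamer CTAGTGGC is the reverse complement of GCCACTAG, which lies inside the capitals of the Gm48284 window. There it is part of the motif itself, and it reads like the consensus except for a T in place of a C. A peak without a match can thus hold part of the motif. It was picked after these sequences had been seen, so its counts are a description. Within 50 bp to each side of the summit, on either strand, 8 of the 278 lncRNA-only promoter peaks without a match held it (2.88%, exact 95% interval 1.25 to 5.59). The same share was 2.90% over all 14883 conservative peaks without a match and 0.175% over flanking windows of the same length. Among the 458 lncRNA-only promoter peaks with a match, 24 held it (5.24%). Its frequency at unmatched lncRNA promoters was therefore close to that at unmatched CTCF peaks in general.

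The strongest peak was the first of those 3. It lay 219 bp upstream of Gm31812, an intergenic lncRNA on chromosome 1, and had a signal value of 725, which placed it at the 99.99 percentile of the whole list. In the separate peak calls its value was 412 in pool I and 317 in pool J. AC122818.2 on chromosome 17 followed with a signal value of 708 (405 in pool I and 307 in pool J), 64161 bp from Epcam, which encodes an epithelial adhesion protein. Both of the top peaks thus lacked a motif match, whereas each of the next 6 had one.

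Those 6 peaks had signal values between 677 and 692. They belonged to Gm12052, Gm41414, Epb41l4aos, D830036C21Rik, Gm26841 and Gm13031. Gm41414 on chromosome 16 had its summit 18 bp upstream of the TSS and carried a motif on the gene's own strand. Its signal value was 687 (398 in pool I and 297 in pool J). Gm13031 is an antisense gene on chromosome 4 whose summit lay 147 bp upstream of its TSS and 3154 bp from that of Sdhb, a subunit of succinate dehydrogenase. D830036C21Rik lay 1931 bp from the DNA repair gene Ercc1, and Gm12052 lay 105687 bp from Tmem17, which encodes a ciliary membrane protein. The strongest lncRNA-only sites therefore ranged from near neighbours of a coding promoter to places far from any. At the other end, the 4 weakest summits, at Gm29340, Gm48847, Gm28592 and Gm11205, had signal values from 9.55 to 22.8 in the conservative list. None of the 4 had a motif match or a summit within 100 bp in both pools' own calls.

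The 736 peaks were stronger than the rest of the list. Their median signal value was 318 (quartiles 167 and 493), against 236 at coding promoters and 273 at non-promoter peaks. The share above the median of the whole list was 56.5% (416 of 736, exact 95% interval 52.9 to 60.1). At coding promoters that share was 44.1% (difference 12.4 percentage points, Fisher's exact test, adjusted p = 9.5e-10), and at non-promoter peaks 50.6% (difference 5.93 points, adjusted p = 0.0023). These and the following shares of peaks were compared by two-sided Fisher's exact tests, with Benjamini-Hochberg adjustment over the 15 tests made. The tests set groups of sites in 1 list against each other, neighbouring peaks are not independent, and nothing is said by them about spread between animals. In the strongest decile of the list lay 95 lncRNA-only promoter peaks (12.9% of them) and in the weakest 60 (8.15%).

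The motif was present at most lncRNA-only promoter peaks. On the even-numbered autosomes and X, from which the motif had not been learned, 196 of 312 had a match (62.8%, exact 95% interval 57.2 to 68.2), where 66.6% of all conservative summits had one. Coding promoters had a match at 40.3% of 2083 summits, 22.5 percentage points lower (exact test, adjusted p = 3.9e-13). Non-promoter peaks had one at 69.7% of 18466 summits, 6.85 points higher than at lncRNA promoters (exact test, adjusted p = 0.0148), a difference that did not pass the threshold under 4 of the alternatives tried. In motif content these promoters thus lay between the 2 comparison groups, and nearer to the sites outside promoters. The size of their share depended on the settings. It was 12.8% at a stricter threshold, which 0.1% of flanking windows reached, and 44.5% in the pool I list. Under the other alternatives it lay between 55.6% and 68.1%. The motif centre was within 20 bp of the summit at 89.5% of matched lncRNA-only peaks, near the 92.0% of all matched peaks in the list.

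The motif share was higher among stronger peaks. The model was learned from strong peaks, which favours the motif variants of such peaks, so the shares are given only for the even-numbered autosomes and X. With the whole list divided into quartiles of signal, matches were found at 27 of 69 lncRNA-only peaks in the weakest quartile (39.1%), 36 of 67 in the next (53.7%), 48 of 77 in the one above (62.3%) and 85 of 99 in the strongest (85.9%). Coding promoters stood at 21.8%, 28.3%, 51.3% and 69.4% in the same quartiles. Non-promoter peaks stood at 54.8%, 62.0%, 75.5% and 86.2%. The lncRNA-only shares were thus above those of coding promoters in every quartile, below those of non-promoter peaks in the lower 3, and within 1 point of them in the strongest. The differences within quartiles were not tested one by one.

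**Figure D1:**
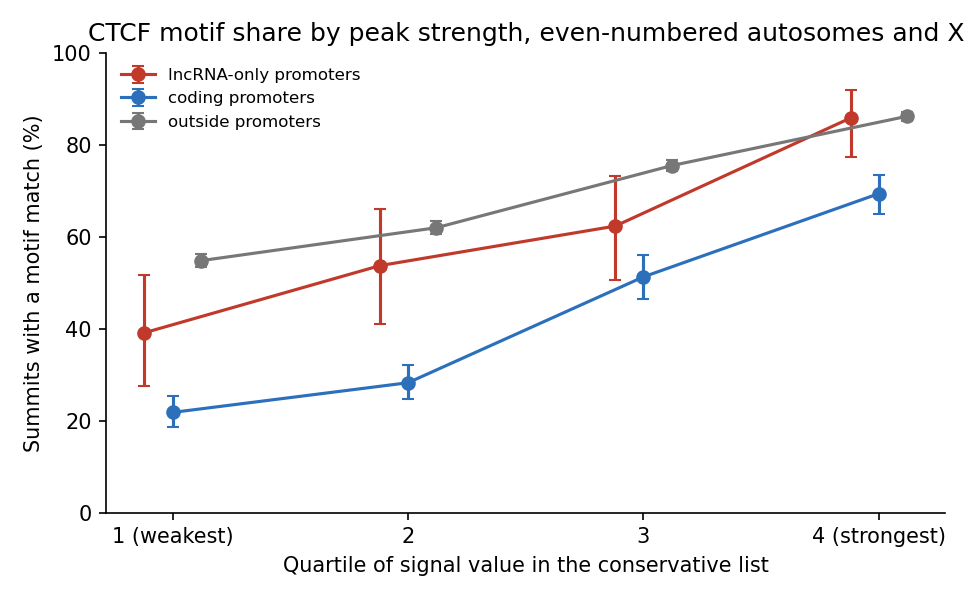
Share of summits with a CTCF motif match (vertical axis, %) by quartile of signal value in the conservative list (horizontal axis, 1 weakest to 4 strongest), for lncRNA-only promoters (red), coding promoters (blue) and non-promoter peaks (grey, "outside promoters"). Bars are exact 95% binomial intervals on the even-numbered autosomes and X. The red points climb from 39.1% to 85.9%, above the blue points in each quartile.

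Base composition set lncRNA-only promoters apart from both other groups. A summit was called CpG-rich when the sequence from 250 bp before it to 250 bp after it had at least 50% G and C and an observed-to-expected CpG ratio of at least 0.6. By that definition 102 of 736 lncRNA-only peaks were CpG-rich (13.9%, exact 95% interval 11.4 to 16.6), where 7.72% of all conservative summits were. At coding promoters the share was 56.1% (exact test, adjusted p = 1.1e-108) and at non-promoter peaks 1.78% (adjusted p = 1.2e-53). The median CpG ratio was 0.346 at lncRNA-only promoters, 0.666 at coding promoters and 0.207 at non-promoter peaks, and the median G and C content 49.1%, 58.7% and 45.5%. All of these measures placed lncRNA-only promoters between the other groups.

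CpG content and motif content were then looked at together. Among CpG-poor summits on the test chromosomes, 175 of 272 lncRNA-only peaks had a motif match (64.3%), against 46.9% of 907 at coding promoters (difference 17.5 percentage points, exact test, adjusted p = 8.8e-07). Among CpG-rich summits it was 21 of 40 (52.5%, exact 95% interval 36.1 to 68.5) against 35.2% of 1176 (difference 17.3 points, adjusted p = 0.0365). The difference among CpG-poor summits held under every alternative tried, while that among the 40 CpG-rich peaks kept its direction but lost its call under 5 of them. Over all chromosomes, 412 of 634 CpG-poor lncRNA-only peaks had a match (65.0%) and 46 of 102 CpG-rich ones did (45.1%). Median signal was 332 in the CpG-poor and 252 in the CpG-rich peaks, and the 46.1% of CpG-rich peaks within 200 bp of the TSS compares with 29.2% of CpG-poor ones.

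Fewer lncRNA-only promoter peaks than distal ones fell in repeats. The summit base was in soft-masked repeat sequence at 89 of 736 peaks (12.1%), where 19.9% of all conservative summits were. The share was 6.98% at coding promoters (exact test, adjusted p = 7.9e-06) and 21.6% at non-promoter peaks (adjusted p = 1.1e-10). Repeat-borne peaks made up 14.8% of lncRNA-only peaks with a motif match and 7.55% of those without.

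Summits gathered just upstream of the lncRNA TSS. Between 100 and 1 bp upstream lay 101 of them (13.7%), and between 200 and 101 bp upstream another 70 (9.51%), while each 100 bp bin beyond 200 bp on either side held between 14 and 45. The median distance to the lncRNA TSS was 410 bp. Within 200 bp lay 232 summits (31.5%), against 47.8% of coding-promoter summits within 200 bp of their own TSS (difference -16.3 percentage points, exact test, adjusted p = 3.2e-16). Both groups were defined by these same distances, and not in the same way. Summits near a coding TSS were taken out of the lncRNA-only group, while coding promoters kept those near a lncRNA TSS. The test therefore cannot say whether CTCF lies less often close to lncRNA start sites than to coding ones. Distance was taken to the nearest of all annotated TSSs. These were 41525 for 21938 coding genes and 11840 for 10155 lncRNA genes, and how far that affects the difference was not tested. How precisely the lncRNA start sites are annotated was not measured.

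**Figure D2:**
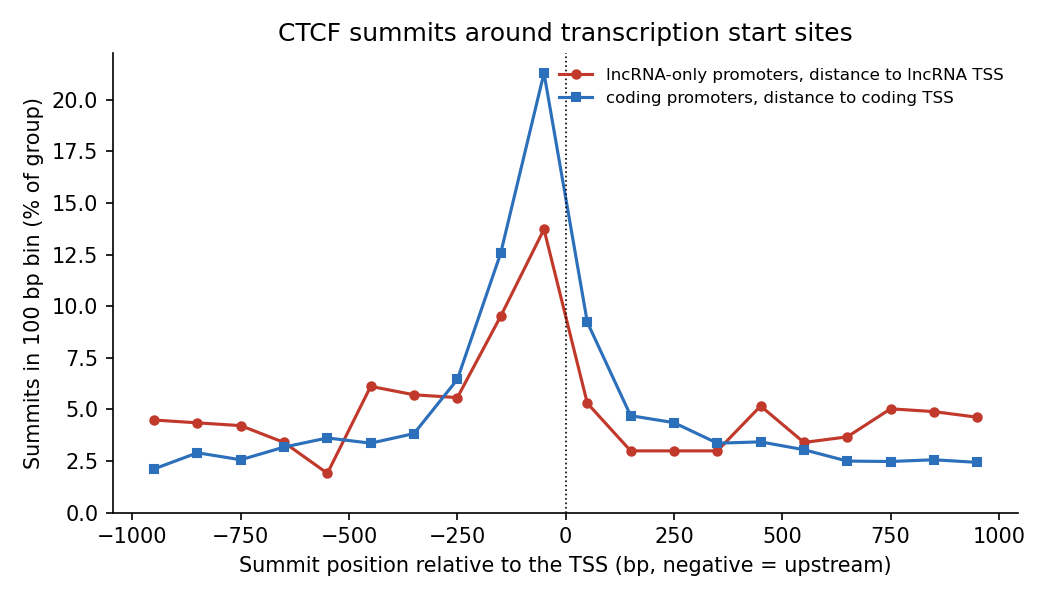
Share of each group's summits (vertical axis, %) in 100 bp bins of position relative to the nearest TSS (horizontal axis, bp, negative is upstream), for lncRNA-only promoters (red, lncRNA TSS) and coding promoters (blue, protein-coding TSS). Both lines peak between 100 and 1 bp upstream, at 13.7% and 21.3%.

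The upstream side was favoured. Of the 735 summits not exactly at a TSS, 434 lay upstream (59.0%, exact 95% interval 55.4 to 62.6) and 301 downstream (adjusted p = 2.0e-06, two-sided exact binomial test against equal shares). Most of the imbalance was in the nearest 200 bp, where 171 summits were upstream and 61 at or downstream of the TSS. Farther out, to 1000 bp, the numbers were 263 upstream and 241 downstream. Coding promoters had 33.9% of their summits in the 200 bp upstream and 14.0% in the 200 bp downstream.

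Motifs lay slightly more often on the lncRNA gene's own strand, the one that reads like the transcript, than on the other. The count was 252 of 458 (55%, exact 95% interval 50.3 to 59.6, adjusted p = 0.0408, two-sided exact binomial test). That call was lost under 4 of the alternatives, in each of which the gene's own strand kept the larger share. Divided by position, which was done after the data had been seen and therefore without a test, the imbalance was seen next to the TSS. With summits 200 to 1 bp upstream, 83 of 119 motifs were on the gene's own strand (69.7%, exact 95% interval 60.7 to 77.8). With summits anywhere else, 169 of 339 were (49.9%, interval 44.4 to 55.3). The chromosomes used to learn the motif gave 49 of 70 in the upstream window, and the others 34 of 49.

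Coding promoters also had their largest share next to the TSS. Their motifs were on the gene's own strand in 467 of 687 cases with the summit 200 to 1 bp upstream (68.0%, exact 95% interval 64.3 to 71.5). Elsewhere they were in 669 of 1269 (52.7%). Farther upstream, to 1000 bp, the share was 361 of 656 at coding promoters (55%, interval 51.1 to 58.9) and 78 of 166 at lncRNA-only promoters (47.0%, interval 39.2 to 54.9). The intervals of both kinds of promoter overlapped in both windows, and the difference between them was not tested. In the nearest 200 bp downstream the lncRNA-only peaks had 20 of 34 motifs on the gene's own strand (58.8%, interval 40.7 to 75.4), a number too small to place it between the other positions. The 171 lncRNA-only summits in the upstream window also had the highest median signal of the 4 position classes, 398, and a motif share of 69.6%. Farther upstream the median signal was 318, within 200 bp downstream it was 231, and beyond that 299.9.

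**Figure D3:**
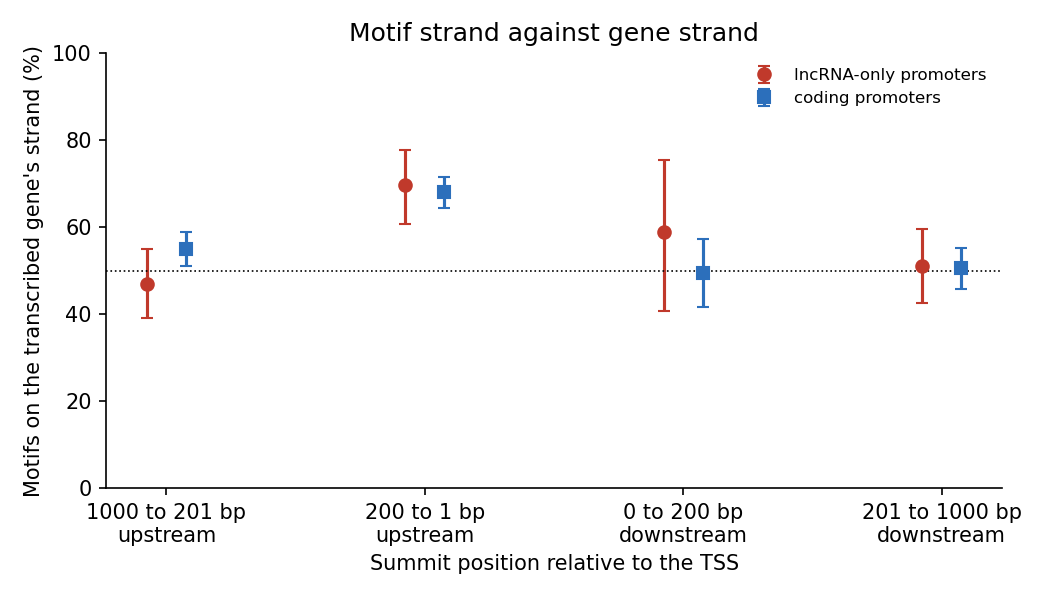
Share of matched motifs on the gene's own strand, which reads like the transcript (vertical axis, %), by position of the summit relative to the TSS (horizontal axis), for lncRNA-only promoters (red) and coding promoters (blue). Bars are exact 95% binomial intervals, the dotted line is at 50%, and both groups stand highest at 200 to 1 bp upstream, at 69.7% and 68.0%.

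By class of lncRNA, 405 peaks belonged to intergenic lncRNAs, 232 to antisense genes, 74 to processed transcripts and 14 to sense-intronic genes, with 11 in the remaining classes. Expressed as a share of the annotated genes of each class, 6.80% of intergenic lncRNAs, 7.30% of antisense genes and 8.48% of processed transcripts had a lncRNA-only promoter peak. The exact intervals of these 3 classes overlapped. Bidirectional-promoter lncRNAs, which by definition start beside a coding TSS, had one at 5 of 190 genes (2.63%). Motif shares in the 3 large classes lay between 59.9% and 64.0%, and CpG-rich shares were 10.1% for intergenic lncRNAs, 15.5% for antisense genes and 27.0% for processed transcripts. The 4 listed hosts of small nucleolar RNAs with a peak, described further on, are in the processed-transcript class. Their part in its CpG-rich share was not tested.

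Most of these sites lay outside coding genes. The summit was outside every protein-coding gene at 494 peaks (67.1%), in an intron of one at 183 and in an exon at 59. Where there was a host gene, the lncRNA ran opposite to it at 206 peaks, in the same direction at 34, and hosts on both strands were found at 2. The same splits over all annotated lncRNA start sites are not given here, and 232 of the peaks belong to antisense genes. Exonic summits were CpG-rich at 24 of 59 (40.7%), intronic ones at 15 of 183 (8.20%). With respect to the lncRNA itself, 403 summits were outside the gene, 193 in an intron and 140 in an exon.

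Distance from the nearest coding TSS ran from 1013 to 1617743 bp, with a median of 21350.5 bp. Between 1 and 2 kb from a coding TSS, 38 of 77 lncRNA-only peaks had a motif match (49.4%, exact 95% interval 37.8 to 61.0) and 23 were CpG-rich (29.9%). More than 100 kb away, 77 of 126 had a match (61.1%) and 10 were CpG-rich (7.94%). In both measures the peaks nearest to a coding TSS had values closer to those of coding promoters, which was not tested. From 2 kb outward the motif share in the 5 distance classes lay between 60.9% and 71.1%, with overlapping intervals and no steady order.

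At the limits of the definition, the members farthest from a lncRNA TSS were at Gm15945 (998 bp), A730056A06Rik (997 bp) and Gm1720 (991 bp), with signal values of 403, 520 and 396. Just beyond it lay summits 1003 bp from Gm16302, 1007 bp from Gm44659 and 1009 bp from Gm26967, with values of 250, 227 and 451. On the coding side, Gm16001, Gm42456 and Gm15908 were kept with summits 1013 to 1019 bp from the TSSs of Ogfod2, Ache and Pxdc1. Left out were summits near Gm27042, C530005A16Rik and 0610039K10Rik, at 999, 997 and 983 bp from those of Aldh18a1, Ccdc17 and Serinc3. These sites were picked for lying nearest to the limits, so their distances do not show how sites are spread around them.

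Several lncRNA genes had more than 1 summit in reach of their TSSs. AI506816 on chromosome 5 had 3, with signal values of 275, 228 and 134, each with a motif match. These lay in separate intervals, with summits at 23712826, 23711823 and 23709851, and not all at the same TSS. The 2 weaker ones were in repeats. B230206L02Rik on chromosome 11 also had 3, at 439, 183 and 49.0, of which the strongest lay 74 bp upstream of the TSS. Gm41293 had 3 as well (148, 97.7 and 66.5), and 1810032O08Rik had 2 that shared an interval (510 and 301). Such summits are neighbours or parts of 1 peak, and they cannot be taken as independent sites. More generally, the next conservative summit was a median of 6617 bp away for lncRNA-only peaks, 7341 bp for coding promoters and 10082 bp for non-promoter peaks, and 164 lncRNA-only peaks (22.3%) had a neighbour within 2000 bp, as did 24.9% of coding promoters, 14.7% of non-promoter peaks and 15.9% of the whole list.

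Known lncRNAs were then looked up in groups by function. Every count of genes below reads against the 6.93% of all lncRNA genes with a lncRNA-only promoter peak, and the groups are too small, and were chosen with too much known, for a test. That background includes the 552 lncRNA genes of chromosome Y, which these female animals lack. It is therefore lower than the share over the other chromosomes. A gene that starts beside a coding TSS can hardly have such a peak by the rule. Zfas1, with a TSS 81 bp from a coding one, had a summit within 1000 bp that the rule left out. Gas5, with a TSS 80 bp from a coding one, had no conservative summit of any kind within 1000 bp. Of the 736 peaks, 681 had a nearest lncRNA gene with a clone or serial symbol. The share of such symbols over all annotated lncRNA genes is not given here.

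In the group of X inactivation and X-linked lncRNAs, 4 of 6 genes had a peak. Xist, whose RNA coats the inactive X chromosome, had 1 summit 981 bp upstream of its TSS, at chrX:103484033-103484410, with a signal value of 524 (315 in pool I and 208 in pool J) and a motif match. Ftx, a neighbour of Xist that is known to promote its expression, had 2 summits, 920 bp and 142 bp upstream of TSSs of the gene, with values of 424 and 331. Neither of the Ftx summits had a match. 5530601H04Rik had a peak of 298 with a match, and Firre, an X-linked RNA involved in nuclear organisation, had one of 232 without. Tsix and Jpx, the other two genes of the group, had none in the conservative list. Over the whole X chromosome the share was 8 of 177 lncRNA genes (4.52%, exact 95% interval 1.97 to 8.71, which includes 6.93%), and 4 of those 8 genes are the ones just named. The animals were female, and the lists do not separate the active from the inactive X.

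Of 11 imprinted lncRNAs in the annotation, 1 had a peak. This was Peg13, a paternally expressed lncRNA that lies inside Trappc9 on chromosome 15, with 2 summits in 1 interval at chr15:72809940-72810543. Their signal values were 231 and 219, and both had a motif match on the minus strand. The first summit was CpG-rich and lay 195 bp from the TSS. The interval was in the thresholded list of pool I but not in that of pool J, as for 18 of the 736 peaks. The first summit had no counterpart within 100 bp in both pools' own ranked calls, and for the second these gave 169 in pool I and 63.8 in pool J. H19, Airn, Igf2os and Dio3os were among the 10 without a conservative summit within 1000 bp of their TSS, which does not speak for sites farther away.

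Nuclear and widely expressed lncRNAs had peaks at 4 of 14 genes. Epb41l4aos had the highest signal value of the group, 682 (391.6 in pool I and 291.9 in pool J), 99 bp upstream of its TSS, in CpG-rich sequence and with a motif match. Mir17hg, the host of a microRNA cluster with roles in proliferation, had 488 with a match 616 bp upstream of its TSS, also CpG-rich. Crnde and Neat1 stood far lower at 108 and 90.7, both CpG-rich and without a match. The Neat1 peak lay 208 bp upstream of that gene, whose RNA is the scaffold of paraspeckles, and also 63 bp downstream of the TSS of Frmd8os on the other strand. The 2 weaker peaks of this group were thus the 2 without a match. Tug1 and Zfas1 had only summits that a coding promoter shared, and 2900097C17Rik, Dancr, Dleu2 and Gas5 were among those with none.

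Hosts of small nucleolar RNAs, the guides of RNA modification, had peaks at 4 of 16 genes. Snhg17 had 2 summits, at 545 and 92.8, the stronger of them 25 bp upstream of the TSS, CpG-rich and without a match. Snhg15 had 505 with a match 157 bp upstream (314 in pool I and 187 in pool J). Snhg5 had 175 and Snhg8 had 134. All 4 main summits lay upstream of the TSS. Among the microRNA hosts, Mir17hg was the only 1 of 10 with a peak, and Mir124-2hg and Mir124a-1hg, which host a neuronal microRNA, had none.

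Of 20 lncRNAs known from the nervous system, 2 had a CTCF summit at the promoter. Besides Peg13 this was C130071C03Rik, the host of a microRNA of the neural miR-9 family, with a signal value of 124 (86.6 in pool I and 40.1 in pool J) 163 bp upstream of the TSS and no motif match. The nearest coding gene, Mef2c, encodes a transcription factor of neurons and muscle, and its TSS was 145541 bp away. Dlx1as and Dlx6os1, which lie beside homeobox genes of inhibitory neurons, had none, like 2610307P16Rik and A330008L17Rik. In the Hox clusters, which pattern the body axis, 1 of 10 lncRNAs had a peak, Hoxd3os1 with 417 and a motif match 67 bp downstream of the TSS. Haglr, Halr1, Hotair and Hotairm1 had none. Both shares lie near the background of all lncRNA genes.

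Genes named for lying on the opposite strand of a coding gene formed the largest group, with peaks at 29 of 293 (9.90%, exact 95% interval 6.73 to 13.9). Another 25 of them had a summit in reach only together with a coding promoter. After Epb41l4aos the strongest was Snhg7os at 638 (372 in pool I and 271 in pool J), 30 bp upstream of its TSS in CpG-rich sequence. Tvp23bos, Tbx3os2, Kdm6bos, Rapgef4os1, Tspan32os and Rab10os followed with values from 490 to 526. All 8 had a motif match, but they were picked as the strongest of the 29 and all lay in the strongest quartile of the list. In that quartile 85 of 99 lncRNA-only peaks on the even-numbered autosomes and X had one (85.9%). Matches at the rest of the 29 are not given here. Tbx3os2 lies beside the developmental transcription factor Tbx3, with 20311 bp from its summit to the Tbx3 TSS, and Rab10os lay 10 bp upstream of its own TSS and 74147 bp from that of Rab10, a small GTPase of vesicle transport.

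**Figure D4:**
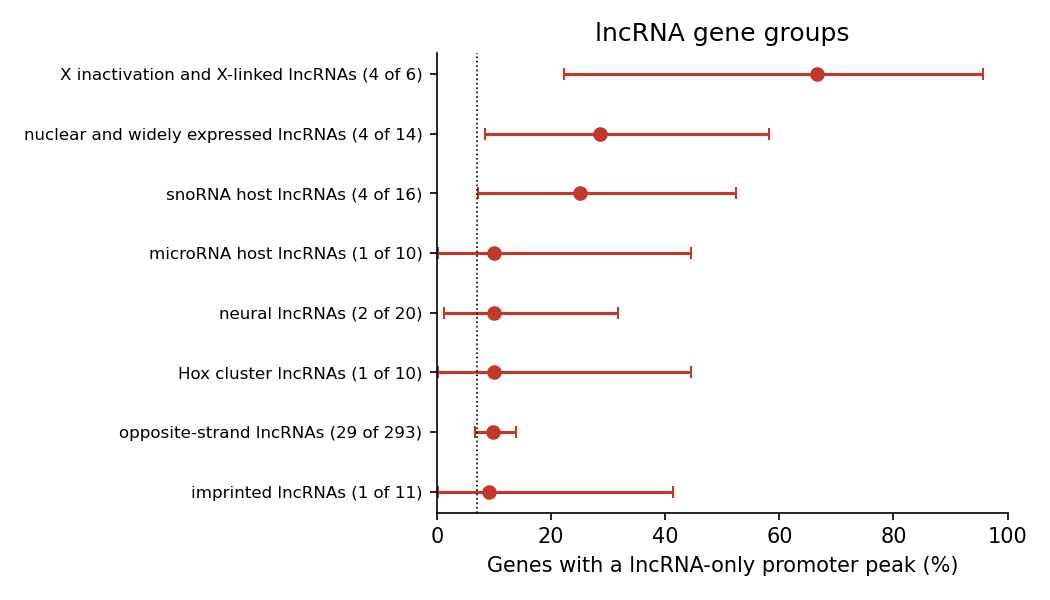
Share of the annotated lncRNA genes of each group that had a lncRNA-only promoter peak (horizontal axis, %), with exact 95% binomial intervals and the count of genes beside each name. The dotted line marks 6.93%, the share over all 10155 lncRNA genes, 552 of them on chromosome Y, and the highest point is the X-linked group at 4 of 6.

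The share of lncRNA genes with such a peak ran by chromosome from 4.52% on X to 11.0% on chromosome 19 (28 of 254, exact 95% interval 7.45 to 15.5), and no peak was found at the 552 lncRNA genes of chromosome Y, which female animals lack. The intervals of most autosomes include the overall share.

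The conservative list is built from peaks that repeat between the pools, so presence in both pools' own lists was largely fixed by the choice of list (99.96% of the whole list was in that of pool I and 96.9% in that of pool J). With an overlap of at least 1 bp, 735 of the 736 were in the thresholded list of pool I, 718 in that of pool J and 717 in both. The share in the pool J list, 97.6%, was not distinguishable from that of coding promoters (96.4%, difference 1.15 percentage points, exact test, adjusted p = 0.137) or non-promoter peaks (96.9%, difference 0.615 points, adjusted p = 0.387). An IDR of at most 0.01 was met by 710 (96.5%), close to the 95.5% of the whole list. The IDR, or irreproducible discovery rate, measures how poorly a peak's rank repeats between 2 replicates, and the list as deposited reaches up to 0.05.

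For 723 of the peaks both pools had a summit of their own within 100 bp, and the signal value was higher in pool I at all 723. Pool I values ran from 42.2 to 412 and pool J values from 18.5 to 317. Pool I exceeded pool J by a median of 0.98 on the log2 scale (SD 0.35 over peaks), against 1.08 at coding promoters and 1.09 over all conservative peaks. The ratio fell with strength, from 1.35 in the weakest quartile of the list to 0.69 in the strongest, much as it did over the whole list (1.39 to 0.70). The excess in pool I was thus general to the list, and differences in depth between the pools could not be read from these files. More than 2-fold from the median ratio of the lncRNA-only group lay 7 peaks (0.968%), where 0.626% of coding promoters, 0.249% of non-promoter peaks and 0.295% of the whole list lay that far from their own medians. Gm43791 (128 in pool I and 28.6 in pool J), Gm11496 (149 and 33.5) and Gm33677 (112 and 26.2) had the highest ratios, with log2 values of 2.17, 2.16 and 2.10. Gm13274, B230206L02Rik and 4930579G18Rik had the lowest, at 0.20, 0.24 and 0.26. With 2 pools there is no replicate of the ratio, so none of these single peaks can be said to differ between the animals.

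**Figure D5:**
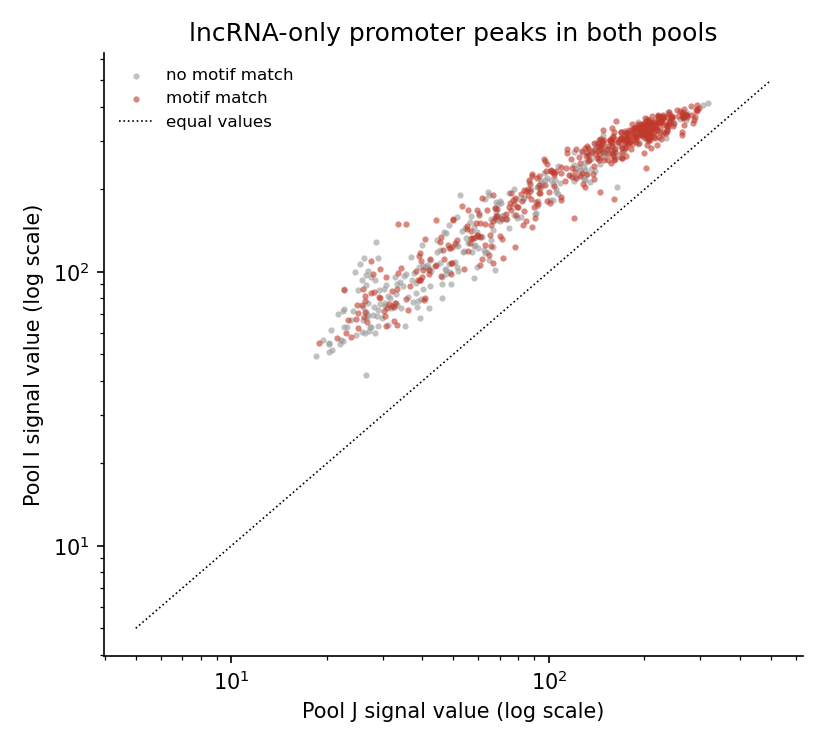
Signal value in pool J (horizontal axis, log scale) against pool I (vertical axis, log scale) for the 723 lncRNA-only promoter peaks with a summit in both pools' own calls, with matched motifs in red and unmatched in grey. The dotted line marks equal values, and all 723 points lie above it.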

How the data were processed

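CTCF ChIP-seq peaks of pool I and pool J were analysed as the 6 peak lists named here, which the authors deposited on mm10: the conservative list (both pools as replicates), the optimal list (pooled reads), and a thresholded and a ranked list of each pool. Column 5 of the deposited lists is a score, a scaled IDR, with a lowest value of 540 over the 4 thresholded lists. The signal value is a further score of the authors' peak caller in an unstated unit. Lists were assigned to pools by the deposited notes. Not given in the sources used here are the aligner, the peak caller and the control. The lists merge both libraries of a pool, so no value per library was used. Read depth is unknown, and intervals (exact Clopper-Pearson, 95%) cover counting of peaks only.

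Summits were annotated with GENCODE M21 basic genes (on the autosomes and sex chromosomes, 21938 protein-coding genes and 10155 lncRNA genes) on GRCm38.p6, whose soft-masking defined repeats. The lncRNA classes were intergenic, antisense, processed transcript, sense-intronic, sense-overlapping, bidirectional-promoter, 3′-overlapping and macro lncRNA. To learn the motif, the 1000 conservative peaks with the highest signal on odd-numbered autosomes were used. A match scored above what 1% of flanking windows, 1000 bp to each side, reached. Tests were two-sided (Fisher's exact or exact binomial), adjusted by Benjamini-Hochberg over 15, with a threshold of 0.05. The test code was tested on simulated data.

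The members, the 8 gene lists and the tests were chosen with earlier results of these data known. Named genes are the 8 strongest and 4 weakest peaks, up to 8 genes with and 4 without a peak per list, the 3 nearest to each side of each distance limit, the 4 genes with most summits, and the 3 highest and 3 lowest pool ratios. Sequences are the 5 highest motif scores and the 3 strongest unmatched peaks, leaving out chromosome 18 and UTRs. The second summits of Ftx, Peg13 and Snhg17, Frmd8os, the octamer, and Gas5, Mir124-2hg, Tug1 and Zfas1 as examples were named after their values were seen. Alternatives covered the windows, the lists, the IDR, the motif and CpG thresholds, the annotation level and the choice of 1 summit per gene. Tests ran in SciPy 1.17.1, tables in pandas 2.3.3 and numpy 2.4.6, plots in matplotlib 3.10.9, all under Python 3.11.15.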

Additional observations from a re-analysis of the deposited data

How the results depend on the processing

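Each result was recomputed under those of 14 settings that bear on it, which gave 169 values in all, of which 150 kept their direction and their side of the threshold (for the number of peaks, stayed within 1.5 times). Values that follow are differences in percentage points unless stated, and the cause of each change was not tested. The number of lncRNA-only promoter peaks was 489 when the coding TSS had to be over 10 kb away and 1250 in the pool I list. The motif difference from non-promoter peaks (-6.85 as reported) was no longer called with 2000 bp windows (-1.95), over 10 kb from coding TSSs (-4.51), with the strongest summit per gene or interval (-4.89) and with the 0.1% motif threshold (-0.90). The motif difference from coding promoters among CpG-rich summits (17.3) lost its call with 500 bp windows (11.8), in the pool I list (4.69), with the 0.1% threshold (6.89), under a stricter CpG definition (16.2) and over all chromosomes (9.75). The excess of motifs on the gene's own strand over 50% (5.02 points) lost its call with 2000 bp windows (2.29), in the pool J list (4.64), with the strongest summit per gene or interval (4.00) and with the 0.1% threshold (6.04). The share in the pool J list, never called, changed sign against coding promoters in the optimal list (-0.020) and against non-promoter peaks with 2000 bp windows (-0.39), at an IDR of at most 0.01 (-0.16) and in the optimal list (-0.34).

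The share of motifs on the gene's own strand with summits 200 to 1 bp upstream was a result added after the data were seen, and it ran from 69.0% to 72.7% over its alternatives. No paired analysis was possible because the peak lists merge the libraries of each pool and hold no value per technical replicate. For the same reason no library was left out in turn. With depth unknown, a lncRNA promoter without a conservative summit is not shown to lack CTCF.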
